A study of Drosophila melanogaster with 2 samples.

Results

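The 8 Hox genes of Drosophila melanogaster, lab, pb, Dfd, Scr, Antp, Ubx, abd-A and Abd-B, were examined in chromatin immunoprecipitation sequencing (ChIP-seq) peak lists for a tagged proneural protein. They were taken by name from a list of the Hox genes on chromosome arm 3R, and all 8 were found among the 13945 protein-coding genes annotated on the 6 main chromosome arms. A peak was counted at a gene where its summit lay in the gene body or within 5 kb of it. In the main list, called on the pooled reads of both replicates and named optimal in the deposited files, 22 of 5823 peaks on the main arms were at a Hox gene.

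Both samples were whole embryos aged 0 to 18 hours, labelled as biological replicates 1 and 2 of 1 group. The embryos came from transgenic flies of the strain amos-GFP that make amos fused to eGFP. The immunoprecipitation used an anti-GFP antibody, although the antibody field of the labels reads amos. Amos is a basic helix-loop-helix (bHLH) protein that directs the formation of olfactory sensory organs and of some other sensory neurons. A whole-embryo library mixes neural precursors with all other cells, so the cells behind a peak cannot be told apart. A control library was not analysed here, and the depth of each library is unknown.

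Hox genes encode homeodomain transcription factors that give each body segment its identity along the head-to-tail axis. In Drosophila they lie in 2 clusters on 3R, the Antennapedia complex with lab, pb, Dfd, Scr and Antp, and the bithorax complex with Ubx, abd-A and Abd-B. Their expression is held in place by long cis-regulatory regions. Polycomb group proteins act there to keep silent genes silent, trithorax group proteins keep active genes active, and boundary elements separate neighbouring regulatory domains. On the dm6 build the genes span 3R from the left end of lab at 6661427 to the right end of Antp at 6999228, and from the left end of Ubx at 16656623 to the right end of Abd-B at 16972236. Of the 8, Dfd is the one gene on the plus strand.

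The sequences under the summits that carry the results are shown here, each the 101 bases of the dm6 plus strand centred on a summit. The first 4 lie at a Hox start site, the next 3 past the 3′ end of Ubx or Dfd, and the last 4 in introns of Antp, of the long non-coding RNA gene iab8 and of Abd-B. Capitals mark matches, on either strand, to CGATAG and TATCGATA (letters of the DREF element of housekeeping promoters), GAGAG (bound by GAGA factor, the product of Trl), GCCAT (core of the Pho site of Polycomb response elements), CANNTG (the E-box that bHLH proteins bind) and AGGNGGCGC (core of the CTCF site). Overlapping matches run together in 1 stretch of capitals.
abd-A start site, optimal list, chr3R:16830162-16830262: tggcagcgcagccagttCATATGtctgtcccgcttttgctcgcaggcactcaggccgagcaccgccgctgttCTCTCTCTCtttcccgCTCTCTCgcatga
Ubx start site, replicate 1 list, chr3R:16734430-16734530: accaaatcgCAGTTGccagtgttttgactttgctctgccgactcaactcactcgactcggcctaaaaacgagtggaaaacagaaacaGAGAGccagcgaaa
Scr start site, replicate 1 list, chr3R:6850036-6850136: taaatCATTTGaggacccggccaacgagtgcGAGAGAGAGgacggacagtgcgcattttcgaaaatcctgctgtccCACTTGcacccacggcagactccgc
lab start site, replicate 1 list, chr3R:6678632-6678732: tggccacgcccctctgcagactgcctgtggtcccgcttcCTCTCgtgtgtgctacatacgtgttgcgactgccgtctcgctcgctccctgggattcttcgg
modSP start site beside Ubx, chr3R:16655782-16655882: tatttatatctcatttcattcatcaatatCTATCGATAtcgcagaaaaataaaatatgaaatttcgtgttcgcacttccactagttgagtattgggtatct
past the 3′ end of Ubx, chr3R:16656320-16656420: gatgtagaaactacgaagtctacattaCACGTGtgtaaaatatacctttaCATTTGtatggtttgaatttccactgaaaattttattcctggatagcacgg
past the 3′ end of Dfd, chr3R:6806801-6806901: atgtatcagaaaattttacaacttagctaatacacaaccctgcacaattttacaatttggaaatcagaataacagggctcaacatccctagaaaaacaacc
Antp intron, chr3R:6912312-6912412: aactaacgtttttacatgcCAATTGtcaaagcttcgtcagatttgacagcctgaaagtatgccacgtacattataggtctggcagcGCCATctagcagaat
iab8 intron, chr3R:16869481-16869581: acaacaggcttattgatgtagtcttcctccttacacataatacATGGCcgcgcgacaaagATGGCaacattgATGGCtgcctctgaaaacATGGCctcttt
iab8 intron nearest Abd-B, chr3R:16919217-16919317: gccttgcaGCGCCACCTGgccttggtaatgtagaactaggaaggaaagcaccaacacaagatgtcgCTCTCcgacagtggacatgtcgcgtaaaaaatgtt
Abd-B intron, chr3R:16969690-16969790: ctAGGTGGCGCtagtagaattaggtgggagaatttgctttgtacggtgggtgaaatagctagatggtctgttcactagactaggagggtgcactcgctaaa

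In the optimal list all 8 Hox genes had a peak, beside 64.7% of all protein-coding genes. Hox genes are long, from 10593 bp for Dfd to 102976 bp for Antp, and among the 1865 coding genes at least as long as Dfd, called long genes here, the share was 77.2%. In the list of replicate 1, 8 of 8 had a peak, beside 66% of all genes and 79.1% of long genes. In the list of replicate 2, 7 of 8 had one, beside 45.2% and 53.5%, lab being the gene without. The conservative list, the shorter of the 2 thresholded lists on pooled reads, held a peak at 6 of 8, beside 48% and 55.3%. Scr and abd-A had none there.

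The peaks at Hox genes were seldom at Hox start sites. A promoter peak was defined as a summit within 500 bp of a protein-coding start site, so start sites of non-coding genes were not counted. Of the 22 peaks in the optimal list, 6 were promoter peaks, or 27.3% beside 74.7% of all peaks and 70.6% of peaks at long genes. Of those 6, 5 were at start sites of neighbouring genes, namely CG1307 and agt beside lab and CG14907 and modSP, with 2 peaks, beside Ubx. The remaining peak was at abd-A, so 1 of 8 Hox genes had a peak at its own start site. The same share was 37.3% among all coding genes and 49.2% among long genes. In the conservative list 0 of 8 had one, beside 23.8% and 26%. The promoter share of Hox peaks was 27.3% in the conservative list, beside 82% of all its peaks and 78.6% of those at long genes. It was 50% of 18 peaks in the replicate 1 list, beside 78.9% and 74.8%, and 9.09% of 11 peaks in the replicate 2 list, beside 72.8% and 67.5%. In each of the 4 lists it was below the share of the whole list, and the values of the 2 replicates lay far apart.

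By position, 11 of the 22 summits were inside a Hox gene, 5 between neighbouring Hox genes and 6 outside the complexes, next to lab or Ubx. By annotation, 9 were intergenic, 9 intronic, 2 in coding exons, 1 in a 3′ untranslated region and 1 in a non-coding exon. Across all optimal peaks 47.9% of summits were intergenic, 17% intronic, 4.74% in coding exons, 1.97% in 3′ untranslated regions and 5.29% in non-coding exons. A further 23.1% were in 5′ untranslated regions, where no Hox peak of the optimal list lay. Most peaks were deposited at a fixed width of 360 bp, and 5 of the 22 were narrower, beside 35.6% of all. The median distance from a summit to the nearest coding start site was 2384 bp, beside 63 bp over all peaks.

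Signals are the values deposited by the authors for each peak, and are read here within a list. The Hox peaks ranged from 41.6 to 279, with a median of 86 beside 120.1 for all optimal peaks, and 7 of 22 were above that list median. The best stood at rank 1534 and the lowest at rank 5604, far from the strongest peak of the list at 4454.5. All optimal peaks away from promoters, 1471 in number, had a median of 79.9, and promoter peaks had one of 141. The median of the 22 Hox peaks, 6 of them promoter peaks, was near the first and below the second. A q value of 0.05 or less was given to 14 of the 22, beside 76.4% of all optimal peaks.

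**Figure D1:**
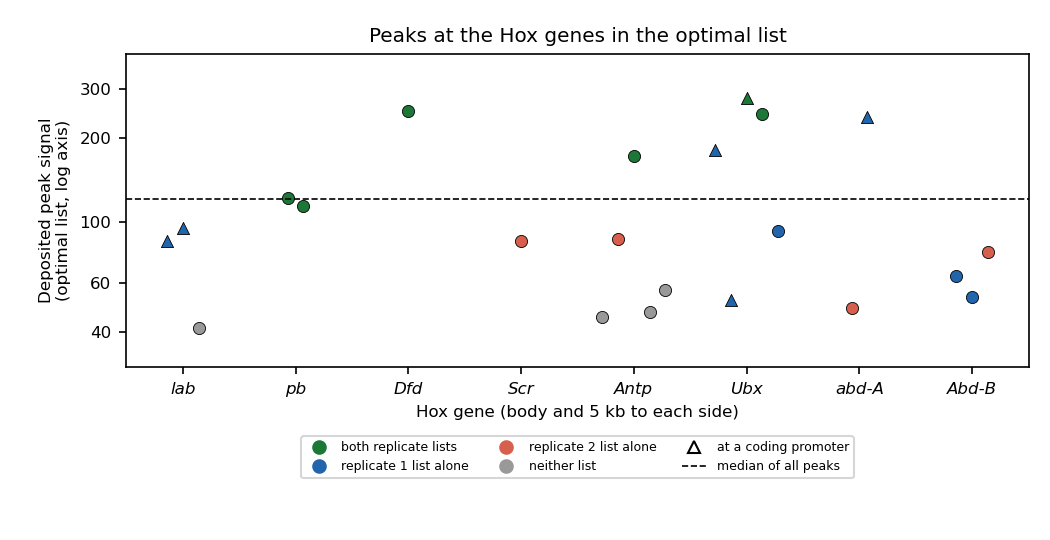
Deposited signal of the 22 optimal peaks at Hox genes (vertical axis, log scale), 1 point for each peak in order along the chromosome within a gene, with colour for the replicate lists that hold it, triangles for promoter peaks of any coding gene and a dashed line at the list median of 120.1. Of the 7 peaks above the line 3 are beside Ubx, and lab, Scr and Abd-B have none there.

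The Hox start sites were then looked at below the threshold of the lists. Replicate 1 listed a peak at the own start site of 4 of 8 genes, lab, Scr, Ubx and abd-A, beside 39.6% of all coding genes and 57.2% of long genes. Replicate 2 listed a peak at 0 of 8, beside 20.6% of all coding genes and 21.2% of long genes. The abd-A summit lay 163 bp upstream of the start site in the optimal list, with a signal of 238 at rank 1759. Its signal was 216 in replicate 1, and the region at the same site had 20.9 in the ranked list of replicate 2, which holds candidate regions before the threshold. At Ubx the values were 83.3 in replicate 1, 54 bp upstream of the start site, and 18.4 in replicate 2. At lab they were 43.3 and 28.3, and at Scr 40.1 and 7.52. None of the 4 start-site peaks of replicate 1 was in the replicate 2 list, which held 40.3% of all promoter peaks of replicate 1. Each of these 4 sites had a larger deposited value in replicate 1, although signals of 2 libraries are on scales of their own.

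At the outermost start sites of pb, Dfd and Antp replicate 1 had no region even in its ranked list, and the regions of replicate 2 had signals of 8.55, 6.87 and 15.9. At the outermost Abd-B start site the values were 6.93 in replicate 1 and 9.72 in replicate 2. The medians over all regions were 11.7 in the ranked list of replicate 1 and 10.8 in that of replicate 2. The outermost start sites of pb, Dfd and Abd-B were thus below them. Regions at internal Abd-B start sites had 2.01 to 27.7 in replicate 1 and 11.6 to 29.3 in replicate 2. Those at internal Antp start sites had 13.1 and 32.3 in replicate 1, and 5.59 and 15.4 in replicate 2. The 19 annotated start sites of the 8 genes had a region within 500 bp at 14 in replicate 1, with a median of 25.9, and at 17 in replicate 2, with a median of 15.4.

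**Figure D2:**
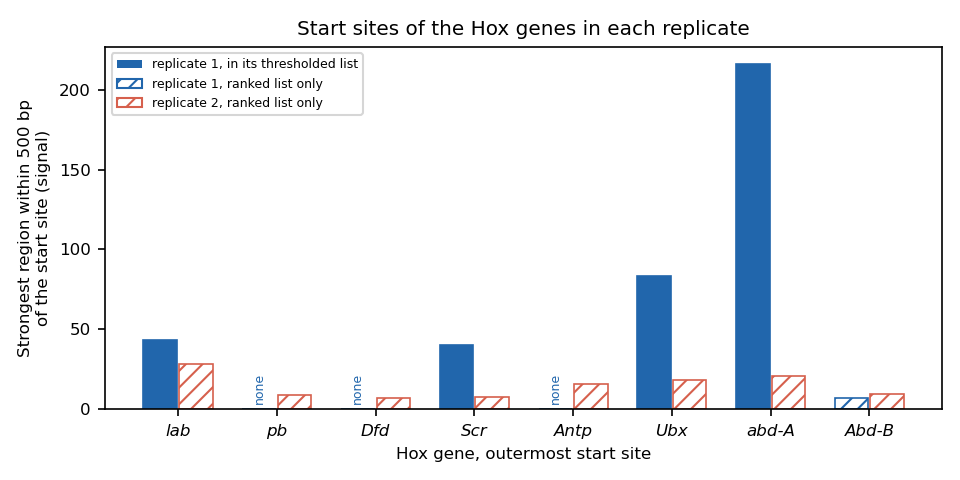
Signal of the strongest region within 500 bp of the outermost start site of each Hox gene in the ranked lists of replicate 1 (blue) and replicate 2 (red), filled where the thresholded list of that replicate also holds it. Blue bars reach 216 at abd-A and 83.3 at Ubx, and no red bar is filled.

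The 4 start-site peaks of replicate 1 held GAGAG in 4 of 4 summit windows, as the first 4 sequences show, beside 12.5% of the 4905 promoter peaks of that list. None of the 4 held CGATAG, which was in 29% of those promoter peaks, or GCCAT, which was in 17.3%. These motif matches were looked at after the 4 windows were chosen and describe letters in a window, not sites of binding.

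At lab, which acts in the head and the endoderm, the 3 optimal peaks were near or past the 3′ end. The peak at the CG1307 start site had a signal of 85.5 in the optimal list and 60.9 in replicate 1. The peak 12 bp from the start site of agt, a DNA alkyltransferase gene, had 94.9 and 59.7. Neither was in the list of replicate 2, whose ranked list gave 24.3 and 38.9 there. The third, in a lab coding exon 586 bp from an internal start site, had the lowest signal of the 22, 41.6, a q value above 0.05 and a place in neither replicate list. The lab peaks inside or at the gene itself were thus a weak exon peak in the pooled list and the start-site peak that replicate 1 alone listed.

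At pb, a gene of the mouthparts, both peaks were at the 3′ end and in all 4 thresholded lists. One lay between lab and pb, 2457 bp from the start site of the cuticle protein gene Ccp84Aa, with signals of 122 in the optimal list, 39.9 in replicate 1 and 90.5 in replicate 2. The other was in a pb intron, 33023 bp downstream of the pb start site, with 114, 41.1 and 76.1. They were 2 of the 6 Hox peaks that both replicates listed.

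Dfd, which specifies the maxillary and mandibular segments, had 1 peak, in the gap between Dfd and Scr past the 3′ end of Dfd. It was 127 bp wide, from 6806751 to 6806877, with a signal of 249 at rank 1700. In replicate 2 it had 198 at rank 720 of the 2973 listed peaks, and in replicate 1 it had 47.5 at rank 4724 of 6214. It stood high in the replicate 2 list and low in that of replicate 1. Its summit window held none of the motifs searched.

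At Scr, a gene of the labial and prothoracic segments, the optimal peak lay 4537 bp upstream of the start site, between Scr and Antp. Its signal was 84.9 in the optimal list and 83.4 in replicate 2, and replicate 1 had no region there even in its ranked list. Replicate 1 listed the start site instead. The 2 replicates therefore listed 2 different places at Scr, and the conservative list neither.

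Antp, which gives thoracic identity, is the longest of the 8 and had 5 optimal peaks. The strongest, in an intron 20478 bp downstream of the nearest Antp start site, had a signal of 172 in the optimal list, 72.2 in replicate 1 and 96.8 in replicate 2. A peak in the 3′ untranslated region had 86.6 and was in the list of replicate 2, at 60.1, but not in that of replicate 1, whose ranked list gave 32.7. The other 3 had signals of 45.3, 47.3 and 56.8, q values above 0.05 and a place in neither replicate list. Of these, 2 were intronic. The peak of 45.3 lay between Scr and Antp in an exon of the non-coding gene CR45559, 126 bp from its start site. One further intron peak, with 38.8, was in the replicate 2 list alone.

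Ubx acts in the posterior thorax and the first abdominal segment. Of its 5 optimal peaks, 4 lay within 5 kb past its 3′ end, outside the bithorax complex, among the genes CG14907 and modSP. The CG14907 peak, 25 bp from the start site, had a signal of 181 in the optimal list and 155 in replicate 1, and was not in the list of replicate 2. The peak 170 bp from the modSP start site had 279, the highest of the 22, with 188 in replicate 1 and 94.4 in replicate 2. A peak from 16656249 to 16656451, between modSP and the 3′ end of Ubx, had 243 in the optimal list, 70.8 in replicate 1 and 199 at rank 718 in replicate 2. The order of the neighbouring pair was thus opposite in the 2 replicates. The fourth, inside modSP, had 52.4 and was in the list of replicate 1 alone.

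Within the 77804 bp of Ubx itself there was 1 optimal peak, in an intron 18567 bp downstream of the start site, with 92.5 in the optimal list and 60.8 in replicate 1. In replicate 2 the region had 36.2 in the ranked list and was not called. CGATAG and TATCGATA were in 2 of the 22 windows, those of the CG14907 and modSP start sites. Over all optimal peaks CGATAG was in 25.7% and TATCGATA in 13.7%. Among optimal peaks away from promoters the shares were 8.57% and 3.94%. No window inside either complex held those letters.

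At abd-A, which acts in the abdomen, the second optimal peak was in a coding exon 642 bp from an internal start site, with 49 in the optimal list and 31.7 in replicate 2. Replicate 1 listed a further peak of 50.4 in an abd-A intron. Neither of the 2 optimal abd-A peaks was in the conservative list, and each was in the list of a different replicate.

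Abd-B, a gene of the posterior abdomen and the genitalia, had 3 optimal peaks, all in introns. Their signals were 64, 53.5 and 78.1. The first and the second were in the replicate 1 list, at 52.9 and 35.3, and not in the replicate 2 list. The third, 1166 bp upstream of a start site, was in the replicate 2 list at 62 and in the conservative list, and the replicate 1 ranked list gave it 33.9. Its window held AGGNGGCGC, as printed.

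Over the 22 peaks, 6 were in both replicate lists (39.7% of all optimal peaks), 8 in that of replicate 1 alone (42.3%), 4 in that of replicate 2 alone (7.2%) and 4 in neither (10.9%). In all, 14 were in the replicate 1 list, beside 82% of all optimal peaks and 57% of those away from promoters. In the replicate 2 list were 10, beside 46.8% and 44%. The 6 peaks in both lists, a share of 27.3%, stood beside 24.6% of all optimal peaks away from promoters, which is near it. The 22 themselves include 6 promoter peaks, so the 2 sets are not fully alike. The conservative list held 11, beside 52.1% of all optimal peaks. Below the threshold, 19 had a region in the ranked list of replicate 1, 20 in that of replicate 2 and 17 in both.

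**Figure D3:**
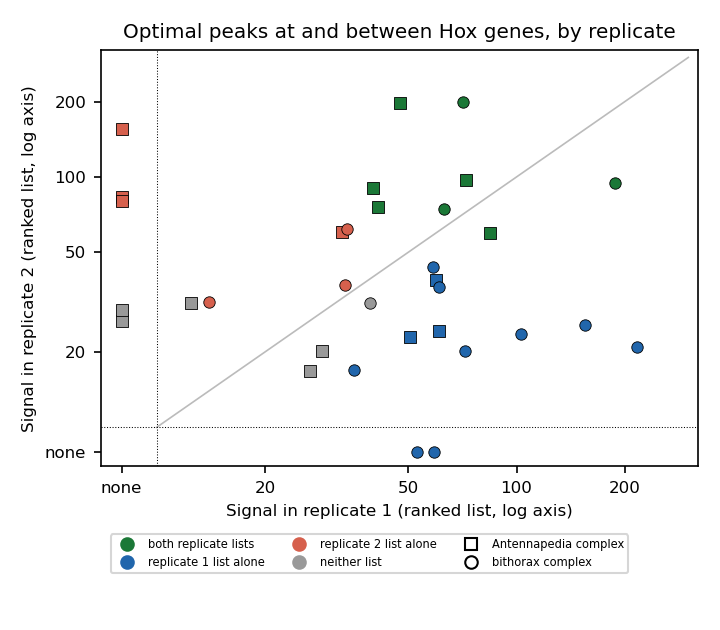
Signal of the 33 optimal peaks at Hox genes or between neighbouring Hox genes in the ranked list of replicate 1 (horizontal axis, log scale) and replicate 2 (vertical axis, log scale), with colour for the thresholded lists that hold them, squares for the Antennapedia complex and circles for the bithorax complex, peaks just outside included. On the edges marked none are the 5 peaks without a region in replicate 1, all of the Antennapedia complex, and the 2 without one in replicate 2, both of the bithorax complex.

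The gaps between neighbouring Hox genes held 11 further optimal peaks beyond 5 kb of any Hox gene. Of these, 3 were above the list median. A peak 176 bp from the start site of bcd, the maternal head determinant, had 149 in the optimal list, 84.2 in replicate 1 and 59.9 in replicate 2. A peak between pb and Dfd at 6780167 to 6780306, 11578 bp upstream of Dfd, had 217 in the optimal list and 155 at rank 986 in replicate 2, and replicate 1 had no region there. The third was in an iab8 intron between abd-A and Abd-B, at 16919087 to 16919446, with 142, 63 in replicate 1 and 74.8 in replicate 2. It was the one peak inside the bithorax complex that both replicates listed, and its window held AGGNGGCGC.

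The other 8 had signals from 40.8 to 116. They included a peak of 97.1 downstream of ftz, a pair-rule gene within the Antennapedia complex, listed by replicate 2 alone, and a peak of 83 in an intron of the non-coding gene bxd, listed by replicate 1 alone. Between abd-A and Abd-B, iab8 peaks of 116 and 111 were in the replicate 1 list, and a peak of 78.6, 39 bp from an iab8 start site, was in that of replicate 2. The conservative list held 1 peak in the complexes that the optimal list lacked, between Ubx and abd-A at 16782364 to 16782723, with a signal of 64.2.

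The stretch from abd-A to Abd-B is known to hold boundary elements such as Mcp, Fab-7 and Fab-8, and the one between Ubx and abd-A the boundary Fub. Their positions are not in the annotation used here, so no peak was matched with one. What could be measured was the distance from the outer gene ends. The Ubx end had the nearest summit, 253 bp outside the complex, with the signal of 243 given above, and the next summit inward was 59236 bp away. At the Abd-B end the nearest was 2496 bp inside, the intron peak of 78.1, and the nearest outside was 5869 bp away with 229. At the lab end the agt peak lay 1315 bp outside and the exon peak 1441 bp inside. At the Antp end the nearest were the peak of 56.8 at 7091 bp inside and one of 48.7 at 38351 bp outside.

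**Figure D4:**
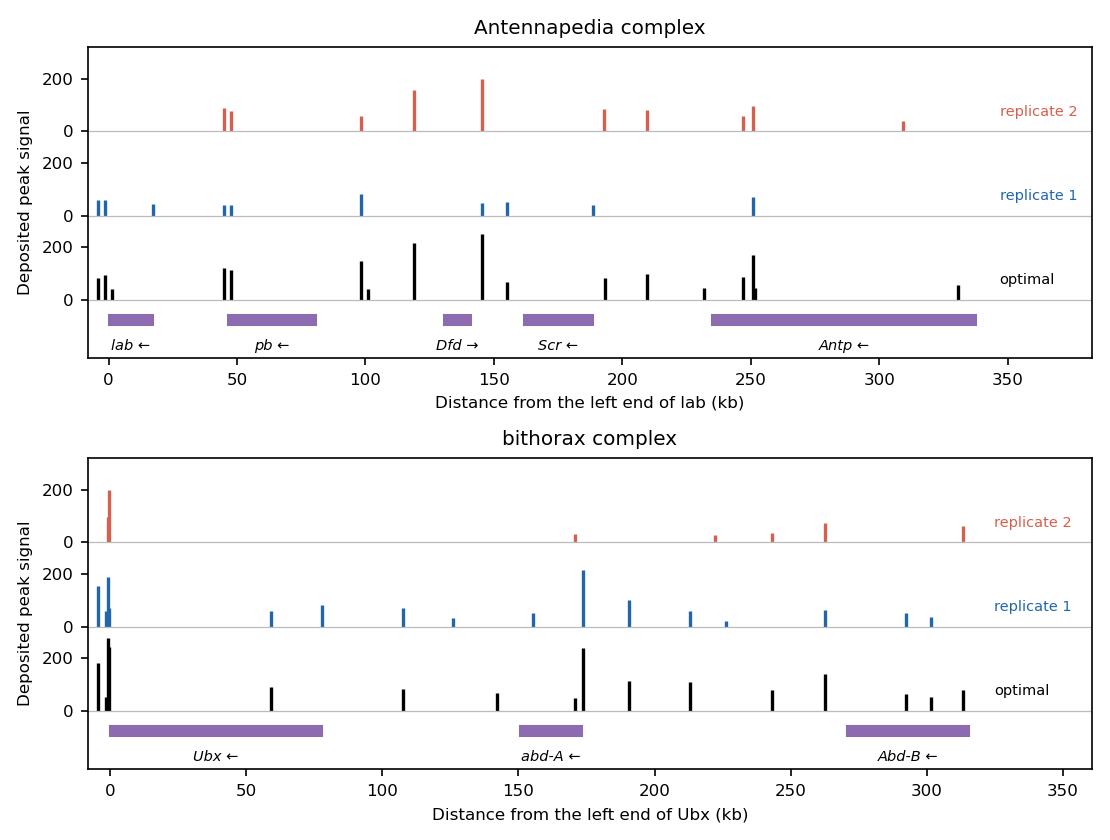
Peaks of the optimal list (black) and of the lists of replicate 1 (blue) and replicate 2 (red) along the Antennapedia complex (top) and the bithorax complex (bottom), with 5 kb to each side, in kb from the left end of lab or Ubx. Bar height is the deposited signal on 1 linear scale from 0 in each row, purple bars are the Hox genes and arrows their direction of transcription. Replicate 1 has 8 peaks inside the upper complex and 12 inside the lower one, and replicate 2 has 10 and 5.

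The Antennapedia complex, 337.8 kb from lab to Antp, held 15 optimal peaks, or 4.44 per 100 kb, and the bithorax complex, 315.6 kb, held 12, or 3.8 per 100 kb. The 6 main arms had 4.35 per 100 kb. The complexes hold few genes, 5.92 and 1.9 coding genes per 100 kb beside 10.4 over the main arms. In the replicate 1 list the complexes had 2.37 and 3.8 peaks per 100 kb, beside 4.64 over the main arms, and in the replicate 2 list 2.96 and 1.58, beside 2.15. The conservative list gave 1.78 and 2.22, beside 2.33. The density of the optimal list was thus near that of the genome. The replicate 1 list was below its main-arm value in both complexes. The replicate 2 list was above its value in the Antennapedia complex and below it in the bithorax complex. The conservative list was below its value in the Antennapedia complex and near it in the bithorax complex. Of the optimal peaks, 3 of the 27 peaks inside the complexes were promoter peaks, at bcd, Ama and abd-A. In the 50 kb left of the bithorax complex, with 15 coding genes, there were 12 optimal peaks, as many as in the whole complex, and 10 of them were promoter peaks. In the 50 kb right of the Antennapedia complex, with no coding gene, there was 1. The 50 kb left of the Antennapedia complex, with 9 coding genes, had 3, and the 50 kb right of the bithorax complex, with 14, had 4.

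The 2 replicates divided differently between the complexes. Of the 15 optimal peaks in the Antennapedia complex, 6 were in the replicate 1 list and 9 in the replicate 2 list. Of the 12 in the bithorax complex, 8 were in the replicate 1 list and 4 in the replicate 2 list. Both replicates listed 5 of the first and 1 of the second. Over all optimal peaks the shares were 82% in the replicate 1 list, 46.8% in the replicate 2 list and 39.7% in both, and over those away from promoters 57%, 44% and 24.6%. The replicate 2 list, with 2973 peaks, is the shorter of the 2, and it held more peaks in the Antennapedia complex than the replicate 1 list did, 10 against 8. With 1 library for each replicate this difference was not tested.

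The letters in the summit windows of the 27 peaks inside the complexes were counted beside those of the list as a whole. CGATAG was in 0 of 27, beside 25.7% of all optimal peaks and 8.57% of those away from promoters. TATCGATA was also in 0, beside 13.7% and 3.94%. Of the 27 peaks 3 were promoter peaks, so the shares away from promoters are the nearer comparison. At such shares few of 27 windows would hold these letters, so 0 is little below them. GCCAT was in 13, or 48.1%, beside 18.7% of all and 21% of those away from promoters. That share was not the same in the lists of the replicates. In the replicate 1 list 9 of 20 windows inside the complexes held GCCAT, or 45% beside 18.2% of all its peaks, and in the replicate 2 list 2 of 15, or 13.3% beside 17.9%. In the conservative list it was 5 of 13, or 38.5% beside 19.3%. Over the 22 optimal peaks at Hox genes it was in 7, and in the replicate 2 list in 0 of 11. GAGAG was in 7, or 25.9%, beside 12.8% and 17.5%. Of those 7, 6 were in the bithorax complex, where they made 50% of its 12 peaks, and 1 was among the 15 of the Antennapedia complex. GAGAG was in 45% of the replicate 1 windows inside the complexes beside 13.4% of that list, in 20% of those of replicate 2 beside 9.03%, and in 15.4% of the conservative ones beside 8.86%. CGATAG was in 0 windows inside the complexes in each of these 3 lists too. It was in 24.5% of all peaks of replicate 1, 36.1% of replicate 2 and 37.7% of the conservative list. Most peaks of those lists were promoter peaks, and their shares away from promoters were not counted.

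The E-box CANNTG, the kind of site that amos with its partner da is known to bind, was in 13 windows, or 48.1%, beside 40.4% of all peaks and 43.8% of those away from promoters. Its share at the complexes was thus near that of the list. AGGNGGCGC was in 2, both in the bithorax complex, or 7.41% beside 1.06% and 1.97%. CAGGTAG, bound by the early activator Zelda, was in 0, beside 0.653% of all peaks. CAGCTG, an E-box with a fixed centre that also matches CANNTG, was in 1, or 3.7% beside 8.64% and 5.23%. An iab8 intron window, printed above, held 4 separate copies of GCCAT, and the abd-A start-site window held 5 overlapping or separate copies of GAGAG.

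Beside Scr the ranked lists held 3 regions that passed a global IDR of 0.01 in at least 1 ranked list and that none of the 4 thresholded lists kept. The 2 strongest lay on tRNA:Lys-TTT-2-1, at 6819894 to 6819966, and on tRNA:Lys-TTT-2-4, at 6822963 to 6823035, in the gap between Dfd and Scr, 3209 and 103 bp from the Scr gene body by their summits. Their signals in a pooled ranked list were 303 and 285, above every Hox peak of the optimal list. In replicate 2 they were 282 and 252, and in replicate 1 25.3 and 31.6. Both passed in that pooled list and in replicate 2, neither passed in replicate 1, and in the other pooled ranked list only the region on tRNA:Lys-TTT-2-4 passed. The third, at 6819177 to 6819536 with no tRNA gene at its summit, had 78.3 in the pooled list and 63.9 in replicate 1, where it passed, and it did not pass in replicate 2. The 5 annotated genes tRNA:Lys-TTT-2-1 to tRNA:Lys-TTT-2-5 had the same 73 bases, so reads within them cannot be told apart between copies. The copies tRNA:Lys-TTT-2-2 and tRNA:Lys-TTT-2-3 had no region in either replicate's ranked list or in the pooled list with 303 and 285. The copy tRNA:Lys-TTT-2-5, at 12131355 to 12131427, had 96.9 in replicate 2, no region in replicate 1 and a place in a thresholded list. Why the 3 regions beside Scr are not in the thresholded lists is not given in the sources used here.

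Of 51 genes that work with or near the Hox genes, 39 had an optimal peak, beside the 64.7% of all coding genes given above. Among other genes of the Antennapedia complex 3 of 5 had one. The bcd peak of 149 also lay within 5 kb of Ama, a cell-surface protein gene, and ftz had the peak of 97.1. The homeobox genes zen and zen2 had none. The list of gap genes, which set the Hox domains in the early embryo, held 6 genes, with cad counted among them. Of these, Kr had an optimal peak of 90.6 and cad one of 176. The summit of the cad peak lay 73 bp from the start site of Pomp, and the replicate 2 and conservative lists lacked it. The gap genes hb, kni, gt and tll had none in the optimal list, although kni had a peak in both replicate lists, at 55.1 and 32.9, and hb one in that of replicate 1. The 4 Hox cofactors include exd and hth, whose products bind DNA together with Hox proteins. In the optimal list exd had 382, tio 101 and hth 93.8, and tsh had none. In the replicate 1 list tsh had one of 35.1. The conservative list held no peak at exd, and the replicate 2 list held none at any of the 4. Of 5 known Hox targets, dpp had 272, salm 79.2 and ems 65.7 in the optimal list, and Dll and wg had none there. The dpp summit lay outside the gene body, 7919 bp from the nearest coding start site, one of dpp. The highest dpp signal was 149 in the conservative list, 127 in replicate 1 and 267 in replicate 2. In the replicate lists wg had peaks of up to 42 and 56.9, and Dll had none.

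The regulators of Hox chromatin state had the strongest peaks of these lists. Of the 17 Polycomb group genes 14 had an optimal peak, the strongest at Asx (896), Scm (699), Pc (698) and Pcl (652), and Psc, ph-d and pho had none. Of these 3, Psc had a peak in the replicate 1 list and ph-d one in the replicate 2 list. All 14 trithorax group genes had one, the strongest at kis (1249.8), fs(1)h (1215), Utx (948) and ash2 (584). Each of these 8 values was more than the highest at a Hox gene, 279, as was the 382 at the cofactor exd. The 8 summits lay 8 to 88 bp from a coding start site, whereas 6 of the 22 Hox peaks were promoter peaks. Over all optimal peaks the median signal was 141 at promoters and 79.9 away from them. The start site nearest to the summit was that of another gene for some of the 8, pAbp for Pcl, mys for fs(1)h and CG6695 for ash2. The same held for the strongest peaks of the trithorax group genes trx, mor, osa, Snr1, Trl and skd. Among the Polycomb group genes it also held for ph-p, Sce, E(z), escl, phol and Jarid2. Over the lists, 30 of the 51 genes had a peak in the conservative list (48% of all coding genes), 43 in that of replicate 1 (66%) and 29 in that of replicate 2 (45.2%).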

How the data were processed

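ChIP-seq peak lists of 2 biological replicates were analysed. Per the deposited text files, coordinates are on dm6 and the 4 thresholded and 4 ranked lists come from the irreproducible discovery rate (IDR) procedure, on each replicate or on pooled reads. No source used here gives the aligner or the peak caller. The deposited signal is the authors' value for each peak, on a scale that goes with the reads it was called on, so that a peak has the same value in lists from the same reads. The deposited lists give each q-value as −log10 and, in the ranked lists, the global IDR as a −log10 score. They hold no read counts, so depth is unknown and no interval is given.

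Summits on 6 arms were placed with the Ensembl 115 annotation, and windows were read from the dm6 Release 6 genome. No deposited peak ends past an arm of that genome. Peaks were shared where they overlapped by at least 1 bp. Motifs, 8 in all, were searched on both strands within 50 bp of a summit. Regions of ranked lists passed at a global IDR of 0.01. In the ranked lists 32 columns of per-input values were not used. No test was run, since there is 1 group, and counts stand beside the same counts over all features. Alternatives were other lists, thresholds, domains and windows. Python 3.11.15, numpy 2.4.6 and pandas 2.3.3 were used, and the placement was tested on simulated peaks.

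The Hox genes, related lists and motifs were chosen with earlier results of these data known. Named were all Hox peaks, peaks between Hox genes above the list median and, in each related list, up to 4 genes with the strongest peaks and all without one where these were 4 or fewer. The backgrounds of long genes and of peaks away from promoters, and the other gap peaks named, were chosen after values were seen. calypso was not matched by symbol.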

Additional observations from a re-analysis of the deposited data

Results flagged for a closer look

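The ranked lists held signal beside Scr that lay outside the 4 thresholded lists used for the counts. The region over tRNA:Lys-TTT-2-1 had a pooled signal of 303 and that over tRNA:Lys-TTT-2-4 had 285, both at a global IDR of 0.01 or less in 1 of the 2 pooled ranked lists and in replicate 2. In the other pooled list only the second passed, and in replicate 1 neither did. A control library was not analysed here to set these values against. The value in replicate 2 was 282 and 252, and that in replicate 1 was 25.3 and 31.6.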

How the results depend on the processing

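Over 8 results and 48 alternative values, 35 stayed within 1.5 times the reported value, or within the spread for a median, and 13 did not. The 22 peaks at Hox genes became 11 in the conservative list, 14 at a q value of 0.05 or less, 7 above the list median signal and 14 with a domain of 1 kb, and were 11 to 18 with a replicate left out. With the peaks above the list median the genes with a peak fell from 8 to 5, and the median signal of Hox peaks was 238 by construction. With a domain of 1 kb, 6 genes had a peak. The 4.13 peaks per 100 kb across the complexes became 1.99 in the conservative list and 1.07 above the list median, and were 2.3 to 3.06 with a replicate left out. The promoter share was 9.09% without replicate 1 and 50% without replicate 2. Windows with CGATAG numbered 1 to 2 with a replicate left out. The conservative and replicate 2 lists and those kept by q value or signal hold fewer peaks than the optimal list, whereas the replicate 1 list holds more, 6213 against 5823, and the cause was not tested. No paired analysis was possible because the study has 1 group. Depth per library is unknown, and 16 of the 22 Hox peaks were not in both replicate lists, which limits each statement on a single peak.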
